A study of Mus musculus with 10 samples.

Results

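Ly6a, Ly6c1, Ly6c2 and Ly6e, 4 mouse genes for small surface proteins of the Ly6 family, were followed through RNA sequencing of immortalised fibroblasts from mouse embryos (MEFs, a common culture model of connective tissue). The genes were taken by name, 4 of the 23337 gene symbols that each of the 10 libraries lists. The cells were labelled Slfn2 KO (a knockout of Slfn2, an interferon-inducible Schlafen gene) or Slfn2 WT, and were either given mouse interferon-β (IFN-β), a type I interferon, at 5000 IU/ml for 6 h or left untreated. The groups were KO-labelled with IFN-β (2 libraries), KO-labelled untreated (2), WT-labelled with IFN-β (3) and WT-labelled untreated (3). The labels describe repeat platings of KO and of WT MEFs and name no separate lines. Each p-value therefore measures the spread between libraries, and a difference between genotypes cannot be told apart from a difference between the cultures that carry the labels.

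Ly6 proteins are small, fold into a compact disulphide-bonded domain shared with the urokinase receptor, and are mostly held in the outer membrane by a glycosylphosphatidylinositol (GPI) lipid anchor. Ly6a is Sca-1, a marker of blood and connective-tissue progenitors that interferons induce. Ly6c1 and Ly6c2 encode the Ly-6C antigen of monocytes, some T cells and some endothelium. Ly6e, once called TSA-1 or Sca-2, marks immature thymocytes, is induced by interferon, and limits the entry of coronaviruses into cells while aiding some other viruses.

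The 4 genes are neighbours on mouse chromosome 15, within 156.92 kb (build GRCm38, GENCODE M21 annotation). Ly6e (ENSMUSG00000022587.14) lies at chr15:74955051-74959905 on the plus strand. Ly6a (ENSMUSG00000075602.10) at chr15:74994877-74998031, Ly6c1 (ENSMUSG00000079018.10) at chr15:75044018-75048830 and Ly6c2 (ENSMUSG00000022584.14) at chr15:75108158-75111970 lie on the minus strand. No other annotated gene overlaps any of them. Over the 10 libraries Ly6e held 96531 reads, Ly6a 17313, Ly6c1 4661 and Ly6c2 a single read, listed as 1. Among the other genes from Psca to Gpihbp1 whose symbols the files list, Lynx1, which tunes nicotinic acetylcholine receptors, held 1392 reads and Ly6i, between Ly6e and Ly6a, held 18. The rest of those listed held 0 to 5.

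**Figure D1:**
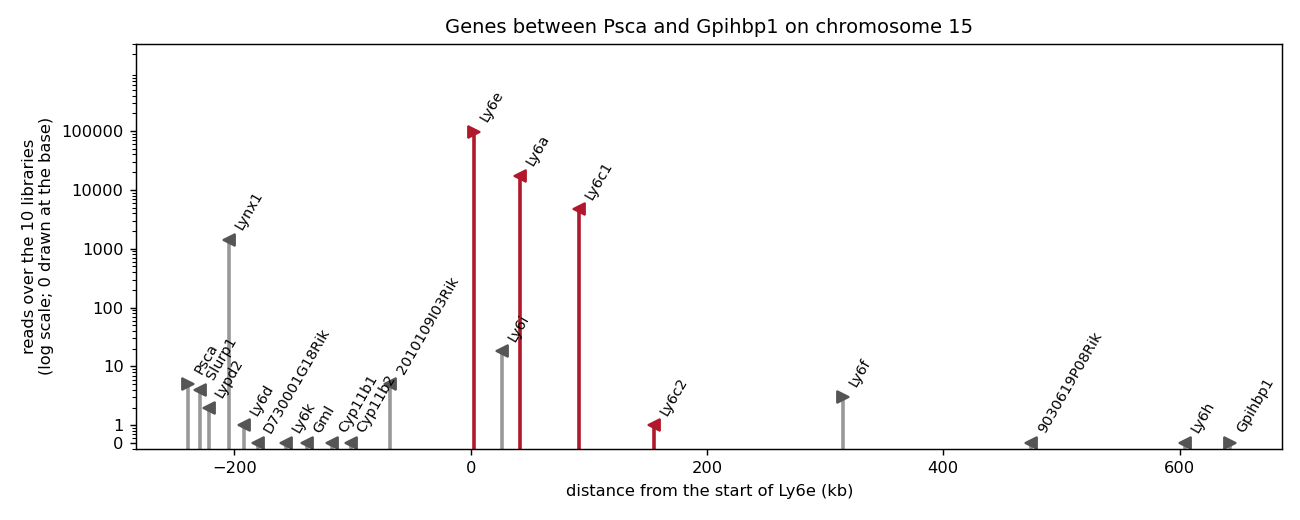
Reads summed over the 10 libraries (log scale, genes at 0 drawn at the base) for each gene from Psca to Gpihbp1 whose symbol the files list, against distance in kb from the start of Ly6e. Arrowheads point along the strand and the 4 Ly6 genes studied are red. Ly6e, Ly6a and Ly6c1 stand at 96531, 17313 and 4661 reads, while Ly6c2 stands at 1.

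The Ly6c1 and Ly6c2 coding sequences are near copies, which matters because Ly6c1 was counted in every library and Ly6c2 in almost none. They have the same length of 396 bases and differ at 9 of them (97.73% identical), with an identical run of up to 188 bases. Of the 9 differences, 6 fall in the first 75 bases, shown here from the start codon with the 6 bases in capitals. Ly6a, shown for the same stretch, has the Ly6c1 base at 4 of these positions and the Ly6c2 base at 2, and differs from Ly6c1 at 0 of the others.
Ly6c1: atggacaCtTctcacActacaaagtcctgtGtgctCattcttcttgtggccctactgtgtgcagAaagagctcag
Ly6c2: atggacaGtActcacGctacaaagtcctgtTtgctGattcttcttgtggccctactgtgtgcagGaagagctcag
Ly6a: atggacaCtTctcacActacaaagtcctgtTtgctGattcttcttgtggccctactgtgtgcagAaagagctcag

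Over the whole coding sequence Ly6a was 81.98% identical to Ly6c1, and Ly6e was 50.46% to 53.81% identical to the other 3. Of all 50-base windows in the annotated Ly6c1 transcripts, 21.49% also occurred in Ly6c2 and 11.05% in Ly6a. Of the Ly6a windows 18.97% occurred in a transcript of another gene, of the Ly6c2 windows 31.21% and of the Ly6e windows 0%. The read length and the treatment of reads that match several genes are not given in the sources used here, so the Ly6a, Ly6c1 and Ly6c2 counts are uncertain to the extent that reads were shared. The Ly6e count has no such limit at this window length.

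Outside the coding sequence Ly6c1 and Ly6c2 differ more. RefSeq promoter windows (GRCm38.p6, from 250 bases before the transcript start to 50 after it) were at hand for 2 of the 4 genes, with 2 transcript starts for each. The windows of the first listed start aligned end to end at 62.28% identity, 208 of 334 columns, of which 68 were gaps. The windows begin at different points of the shared sequence, so gaps at their ends count as differences. They are printed because 1 of the pair was read and the other was not. The Ly6c1 window is chr15:75048788-75049087 and the Ly6c2 window chr15:75111922-75112221, both on the minus strand, with capitals marking the TATA box core TATAAA.
Ly6c1: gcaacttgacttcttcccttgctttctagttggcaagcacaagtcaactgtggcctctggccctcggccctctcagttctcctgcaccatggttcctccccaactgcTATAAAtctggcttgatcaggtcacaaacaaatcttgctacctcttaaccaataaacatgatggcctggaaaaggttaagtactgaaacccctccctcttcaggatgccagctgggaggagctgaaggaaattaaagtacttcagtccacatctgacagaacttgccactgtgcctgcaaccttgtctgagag
Ly6c2: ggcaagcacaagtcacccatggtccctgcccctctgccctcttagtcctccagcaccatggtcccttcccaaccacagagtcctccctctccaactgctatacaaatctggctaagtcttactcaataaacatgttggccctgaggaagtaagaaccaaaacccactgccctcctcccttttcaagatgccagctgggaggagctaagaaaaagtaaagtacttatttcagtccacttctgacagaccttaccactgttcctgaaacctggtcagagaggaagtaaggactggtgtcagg

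The search read both strands for TATAAA, for the interferon-stimulated response element core GAAANNGAAA and for the gamma-activated site core TTCNNNGAA. The Ly6c1 window printed held TATAAA at position −143 from its transcript start and neither of the other 2. The second Ly6c1 window (chr15:75048614-75048913) and both Ly6c2 windows (the second is chr15:75111888-75112187) held none of the 3. Of 32851 promoter windows of the same length, 13.62% held TATAAA, 3.443% GAAANNGAAA and 8.298% TTCNNNGAA. These matches describe letters in a window and say nothing about what binds there.

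The recovered depth was 13565815 to 16329729 reads per library, with a read in 13658 to 14311 genes. Levels below are normalised read counts, reads divided by the authors' size factor for the library, on which 3 reads equal 2.73 to 3.29. The targeted gene, Slfn2, had 75.0 and 171 normalised reads in KO-labelled libraries with IFN-β and 46.1 and 34.9 untreated. It had 527, 449 and 573 in WT-labelled libraries with IFN-β and 18.7, 17.4 and 15.5 untreated. Slfn2 was lower in KO-labelled cells with IFN-β (log2 fold change −2.17 ± 0.36 SE, adjusted p = 0.00816). Untreated, its log2 fold change was 1.18 ± 0.36 (adjusted p = 0.0908, or 0.0391 under the replicate block described below). Its reads thus do not settle the KO label, and the groups are called KO-labelled and WT-labelled.

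Ly6e was the most abundant of the 4. It had 8076 and 15632 normalised reads in KO-labelled libraries with IFN-β, against 3361 and 3297 in untreated ones. In WT-labelled libraries it had 12634, 16045 and 15270 with IFN-β, against 5152, 9351 and 6712 untreated. The treated and untreated libraries did not overlap under either label, and the untreated KO-labelled libraries lay below all the others.

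Ly6a had 568 and 2596 normalised reads in KO-labelled libraries with IFN-β, against 273 and 611 untreated. In WT-labelled libraries it had 2222, 3929 and 3290 with IFN-β, against 683, 1919 and 938 untreated. The KO-labelled treated library numbered 1 lay below the untreated library numbered 2, so these 2 groups overlapped, while the WT-labelled groups did not.

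Ly6c1 was lower still. It had 101 and 413 normalised reads in KO-labelled libraries with IFN-β, against 61.9 and 132 untreated. In WT-labelled libraries it had 560, 1089 and 1062 with IFN-β, against 221, 593 and 376 untreated. Treated and untreated libraries overlapped under both labels, and in each treatment all KO-labelled libraries lay below all WT-labelled ones.

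Ly6c2 had 0 reads in 9 libraries and a single read, 0.9998 normalised reads, in WT-labelled IFN-β library 2. In the same 10 libraries Ly6c1, of similar transcript length (844 bases, against 822 for Ly6c2), had 59 to 1103 reads. A count of 0 allows up to 3 reads per library, counting error only, so Ly6c2 was not detectable at this depth and did not pass the low-count filter.

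**Figure D2:**
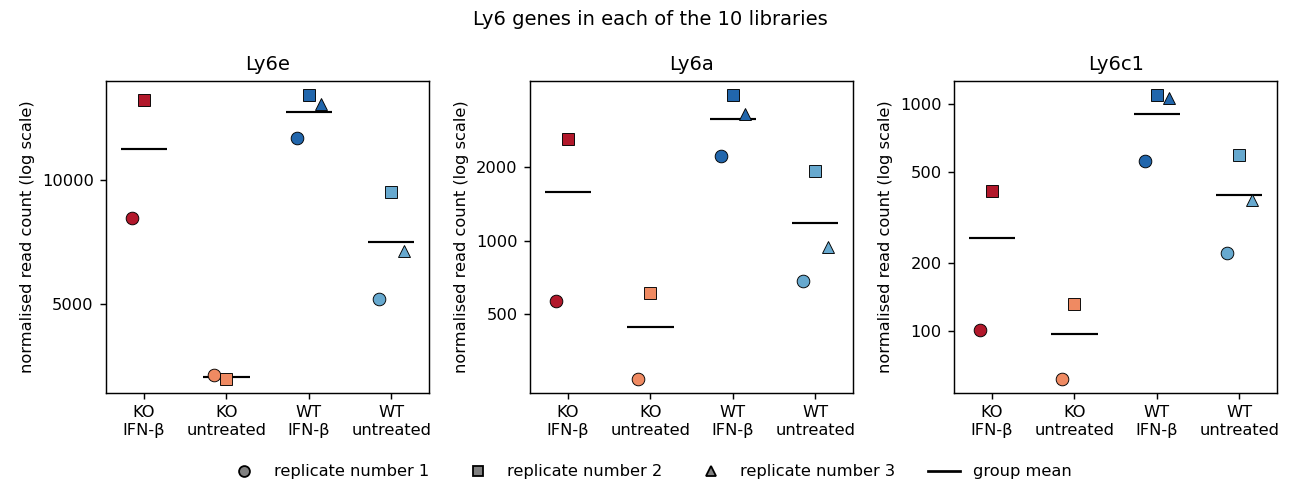
Normalised read counts (log scale, a separate axis for each gene) of Ly6e, Ly6a and Ly6c1 in each library, by group and replicate number, with the group mean as a bar. KO-labelled untreated cells have the lowest mean for all 3 genes, with libraries at 3297 to 3361 for Ly6e, 273 to 611 for Ly6a and 61.9 to 132 for Ly6c1.

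Per kilobase of annotated exon, Ly6e exceeded Ly6a and Ly6a exceeded Ly6c1 in all 10 libraries, and the order was the same per kilobase of a single reference transcript for each gene. The mean level per kb of exon in KO-labelled cells with IFN-β was 3133 ± 1412 for Ly6e, 1313 ± 1190 for Ly6a and 153 ± 131 for Ly6c1 (SD, n = 2). In WT-labelled cells with IFN-β it was 3871 ± 473, 2612 ± 716 and 539 ± 178 in the same order (SD, n = 3). Ordered from high to low, the group means of Ly6e ran WT-labelled IFN-β, KO-labelled IFN-β, WT-labelled untreated and KO-labelled untreated, and so did those of Ly6a. For Ly6c1 the middle pair changed places. Of neighbours in this order, only the lowest pair did not overlap for Ly6e and Ly6a, and each pair overlapped for Ly6c1.

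IFN-β treatment of KO-labelled cells asks whether the Ly6 genes respond where Slfn2 is targeted. Ly6e rose by 1.75 ± 0.34 on the log2 scale (SE, adjusted p = 0.0316), a 3.38-fold difference with a 95% interval of 1.99 to 5.71. It was higher in both treated libraries, by 2.40-fold between those numbered 1 and 4.74-fold between those numbered 2. The log2 fold change was 1.57 ± 0.72 for Ly6a (adjusted p = 1) and 1.17 ± 0.70 for Ly6c1 (adjusted p = 1). Thus 1 of the 3 tested genes rose, against 1.83% of all 12313 genes tested. Treated and untreated libraries did not overlap for Ly6e alone of the 3, as for 10.7% of the genes tested.

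Replicate numbers 1 and 2 occur in every group, and number 3 in the WT-labelled groups alone. Libraries that share a number deviate together, so each comparison was also fitted with the replicate number as a block. With the block all 3 genes rose in KO-labelled cells with IFN-β, against 3.37% of the genes tested. Ly6e gave 1.75 ± 0.21 (adjusted p = 0.0018), Ly6a 1.57 ± 0.28 (adjusted p = 0.0162) and Ly6c1 1.17 ± 0.25 (adjusted p = 0.0408). Between libraries of the same number Ly6a was 2.08-fold and 4.25-fold higher with IFN-β and Ly6c1 1.64-fold and 3.13-fold.

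The Ly6e call in KO-labelled cells without the block was lost when KO-labelled untreated library 1 (adjusted p = 0.154), untreated library 2 (0.145) or IFN-β library 2 (0.233) was left out. It was also lost without WT-labelled untreated library 3 (0.0674) or any of the WT-labelled IFN-β libraries (0.053, 0.0658 and 0.0694), which enter through the shared spread, and in a fit of the 2 KO-labelled groups alone (0.506). With the block it held with any library left out. The blocked Ly6a call needed KO-labelled untreated library 1 (0.0526 without it), untreated library 2 (0.145) and IFN-β library 2 (0.0929). The blocked Ly6c1 call held in 2 of the 10 fits that leave out a library, the ones that leave out KO-labelled IFN-β library 1 or WT-labelled IFN-β library 2. In the other 8 its adjusted p ran from 0.0521 to 0.361, and its log2 fold change was 0.74 in the fit that omits KO-labelled IFN-β library 2.

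In WT-labelled cells the same treatment gave no call in limma without the block, against 2.21% of all genes tested that rose. At an unadjusted p under 0.05, 2 of the 3 were counted as higher, against 5.41% of all genes tested. edgeR called 0 and DESeq2 1, Ly6e (DESeq2 adjusted p = 0.0146), against 3.3% of all genes that were higher in DESeq2. The log2 fold change was 1.51 ± 0.59 for Ly6a (adjusted p = 0.592), 1.24 ± 0.57 for Ly6c1 (0.886) and 1.09 ± 0.27 for Ly6e (0.116). For Ly6a and Ly6e every treated library exceeded every untreated one, as for 7.48% of the genes tested. Within a replicate number Ly6a was 3.25-fold, 2.05-fold and 3.51-fold higher with IFN-β, Ly6c1 2.54-fold, 1.84-fold and 2.83-fold, and Ly6e 2.45-fold, 1.72-fold and 2.27-fold.

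With the block all 3 genes rose with IFN-β in WT-labelled cells, against 4.68% of the genes tested. Ly6a gave 1.51 ± 0.23 (adjusted p = 0.00503), Ly6e 1.09 ± 0.18 (0.00752) and Ly6c1 1.24 ± 0.20 (0.00823). All 3 calls were lost when WT-labelled untreated library 3 was left out (0.0555 for Ly6a, 0.0745 for Ly6e and 0.0901 for Ly6c1), and again when the treated library 3 was (0.0543, 0.0721 and 0.0914). That of Ly6c1 was lost as well when the treated library 1 was left out (0.0566).

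**Figure D3:**
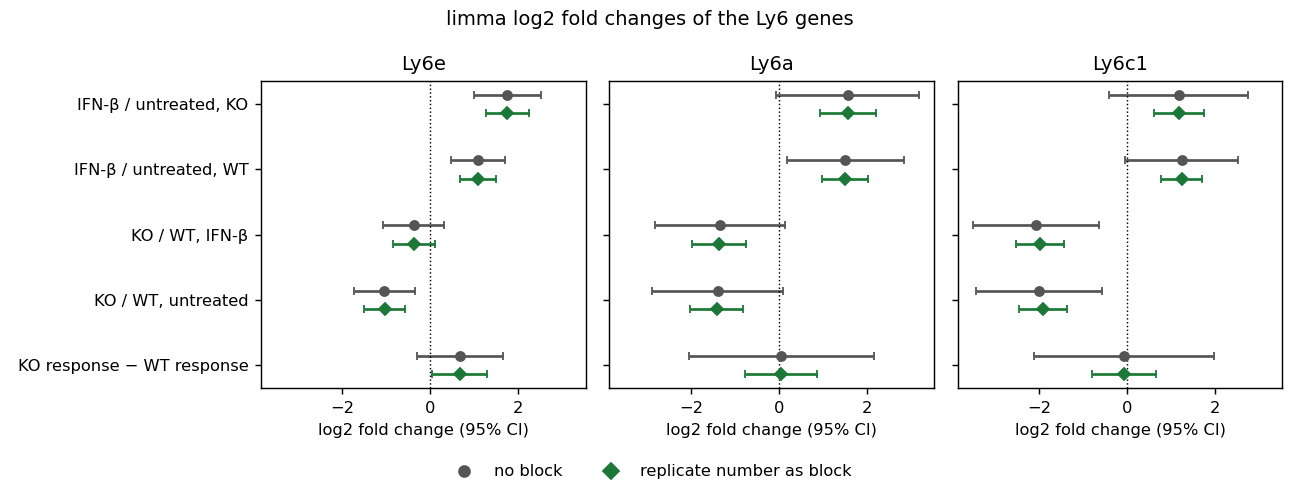
limma log2 fold changes with 95% confidence intervals for Ly6e, Ly6a and Ly6c1 in the 4 comparisons and their interaction, without the block (grey circles) and with the replicate number as a block (green diamonds). The estimates barely move with the block, for Ly6a 1.57 in KO-labelled and 1.51 in WT-labelled cells either way, while the intervals narrow.

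Comparing KO-labelled with WT-labelled cells asks whether the Ly6 level follows the Slfn2 label. Untreated, the log2 fold change was −2.01 ± 0.64 for Ly6c1 (adjusted p = 0.107), −1.39 ± 0.66 for Ly6a (0.27) and −1.04 ± 0.31 for Ly6e (0.0832). Every KO-labelled library lay below every WT-labelled one for all 3, as for 15.9% of the genes tested. None passed in limma without the block, against 3.23% of all genes tested that were lower. At an unadjusted p under 0.05, 2 were counted as lower, against 10.5% of all genes tested. edgeR called 0 and DESeq2 called 2, Ly6c1 (0.0137) and Ly6e (0.0142), against 6.2% of all genes that were lower in DESeq2.

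With the block, 3 of 3 were lower in untreated KO-labelled cells, against 13.1% of the genes tested. Ly6c1 gave −1.92 ± 0.24 (adjusted p = 0.000989), Ly6a −1.41 ± 0.27 (0.00672) and Ly6e −1.03 ± 0.21 (0.00836). Leaving out KO-labelled untreated library 2 ended the Ly6a call (−1.24, adjusted p = 0.0648) and the Ly6e call (−0.66, 0.0725). The Ly6c1 call held with any library left out.

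With IFN-β, Ly6c1 had a log2 fold change of −2.07 ± 0.64 between KO-labelled and WT-labelled cells (adjusted p = 0.0987), Ly6a −1.33 ± 0.66 (0.293) and Ly6e −0.38 ± 0.31 (0.557). None passed in limma without the block, against 3.64% of all genes tested that were lower. At an unadjusted p under 0.05, 1 was counted as lower, against 10.7% of all genes tested. edgeR called 0 and DESeq2 called 1, Ly6c1 (0.0309), against 6.43% of all genes that were lower in DESeq2. Every KO-labelled library lay below every WT-labelled one for Ly6c1, as for 20.4% of the genes tested.

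With the block 2 of 3 were lower in KO-labelled cells with IFN-β, against 13.3% of the genes tested. They were Ly6c1 (−1.99 ± 0.24, adjusted p = 0.000842) and Ly6a (−1.35 ± 0.27, 0.00818), while Ly6e did not pass (−0.37 ± 0.21, 0.223). Leaving out KO-labelled IFN-β library 1 ended the Ly6a call (−0.84, 0.0537), and the Ly6c1 call held with any library left out. In bulk RNA, fewer cells that express a gene and less of its RNA per cell cannot be told apart.

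The interaction asks whether the IFN-β response itself differs, KO-labelled minus WT-labelled. For Ly6a it was 0.06 on the log2 scale (95% interval −2.05 to 2.16, and −0.77 to 0.88 with the block). For Ly6c1 it was −0.07 (−2.11 to 1.98, and −0.80 to 0.67 with the block). For Ly6e it was 0.67 (−0.31 to 1.65, and 0.03 to 1.30 with the block). Each had adjusted p = 1 in limma with and without the block, where 0% of the genes tested passed. Without the block 0 of the 3 had an unadjusted p under 0.05. With the block Ly6e alone did, its interval lying above 0. edgeR and DESeq2 called 0 of the 3. Over all genes tested, 36 had an unadjusted p under 0.05 (151 with the block), and edgeR called 0 and DESeq2 1. The intervals are wide, and the responses are not shown to be equal.

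The libraries of 1 group differed in a way that ran through the groups. Those numbered 1 were lowest in every group for Ly6a, by 0.46 to 1.09 below the group mean on the log2 scale, and for Ly6c1, by 0.54 to 1.01. Those numbered 2 were highest in every group for both. Ly6e followed in 3 groups but not in untreated KO-labelled cells, where library 1 deviated by 0.01 and library 2 by −0.01. What a number stands for is not given in the labels.

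**Figure D4:**
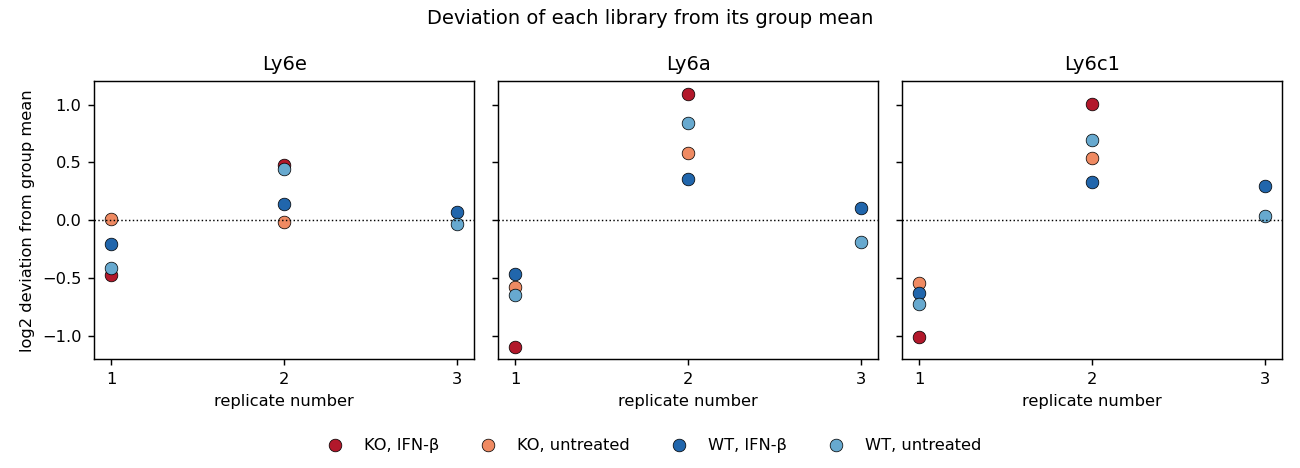
Deviation of each library from its group mean (log2 of normalised reads plus 1) by replicate number, for Ly6e, Ly6a and Ly6c1, with a colour for each group. Libraries numbered 1 lie below 0 in all groups for Ly6a and Ly6c1, and the KO-labelled IFN-β pair is furthest apart, at −1.09 and 1.09 for Ly6a.

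Over the 10 libraries the members moved together. Pearson's r on the log2 scale was 0.957 between Ly6a and Ly6c1, 0.92 between Ly6a and Ly6e and 0.834 between Ly6c1 and Ly6e, and Spearman's rank correlation was 0.952, 0.891 and 0.818. These are descriptions, since the libraries share their groups and numbers. The ratio of Ly6a to Ly6c1 reads was 5.60 and 6.29 in KO-labelled libraries with IFN-β and 4.41 and 4.63 untreated, against at most 3.97 in WT-labelled libraries with IFN-β and at most 3.24 untreated. The KO-labelled ratios lay above all WT-labelled ones. That difference was not tested.

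Genes whose pattern over the 10 libraries was most like that of each member were read off by Pearson's r. The search took genes that passed the low-count filter and left out predicted (Gm) and clone (Rik) names. For Ly6a they were Tifa, an adaptor of TRAF6 signalling (0.976), the transcription factor Stat3 (0.971) and Arhgap24 (0.97). For Ly6c1 they were the corepressor Tle3 (0.983), Mid1ip1 (0.975) and the annexin Anxa8 (0.972). For Ly6e they were Psmb10, a subunit of the immunoproteasome (0.976), and the guanylate-binding proteins Gbp5 (0.97) and Gbp6 (0.968).

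These genes were chosen on the treated and untreated libraries together, so their values are a description. Psmb10 had a log2 fold change with IFN-β of 2.28 in KO-labelled and 1.78 in WT-labelled cells, against 1.75 and 1.09 for Ly6e. Tifa had 54.9 and 189 normalised reads in KO-labelled libraries with IFN-β, against 24.1 and 46.2 untreated, with the library numbered 1 below that numbered 2 in both. By Spearman's rank correlation Stat3 was among the nearest 3 to Ly6a (0.964) and to Ly6c1 (0.988), and Spats2l was nearest to Ly6e (0.988).

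A list of 15 interferon-stimulated genes shows how far the treatment reached. In limma without the block 14 rose in KO-labelled cells, against 1.83% of all genes tested, and the list's median log2 fold change was 8.11. In WT-labelled cells 14 rose, against 2.21%, and the list's median was 6.06. The median over all genes tested was −0.03 in both. Mx1, a GTPase that blocks influenza viruses, rose by 10.29 ± 0.65 in KO-labelled cells (adjusted p = 4.93e-05) and 9.91 ± 0.53 in WT-labelled cells (1.14e-05). The exception without the block was Ifitm3, which restricts virus fusion, at 1.79 (adjusted p = 0.0665) in KO-labelled and 1.25 (0.119) in WT-labelled cells. With the block all 15 rose under both labels, against 3.37% of all genes tested in KO-labelled and 4.68% in WT-labelled cells.

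All 3 Ly6 genes had smaller log2 fold changes than the 15 genes of the list in KO-labelled cells, and so had Ly6c1 and Ly6e in WT-labelled cells, where Ly6a exceeded Ifitm3 alone. Among all 12313 genes, ordered from the highest log2 fold change, Ly6e, Ly6a and Ly6c1 stood at positions 270, 301 and 411 in KO-labelled cells, and at 437, 301 and 378 in WT-labelled cells. Their untreated levels were high beside the list. Per kb of exon the untreated mean of Ly6e exceeded that of 14 of the 15 genes under both labels. That of Ly6a exceeded 13 in KO-labelled and 14 in WT-labelled cells, and that of Ly6c1 exceeded 11 and 12.

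**Figure D5:**
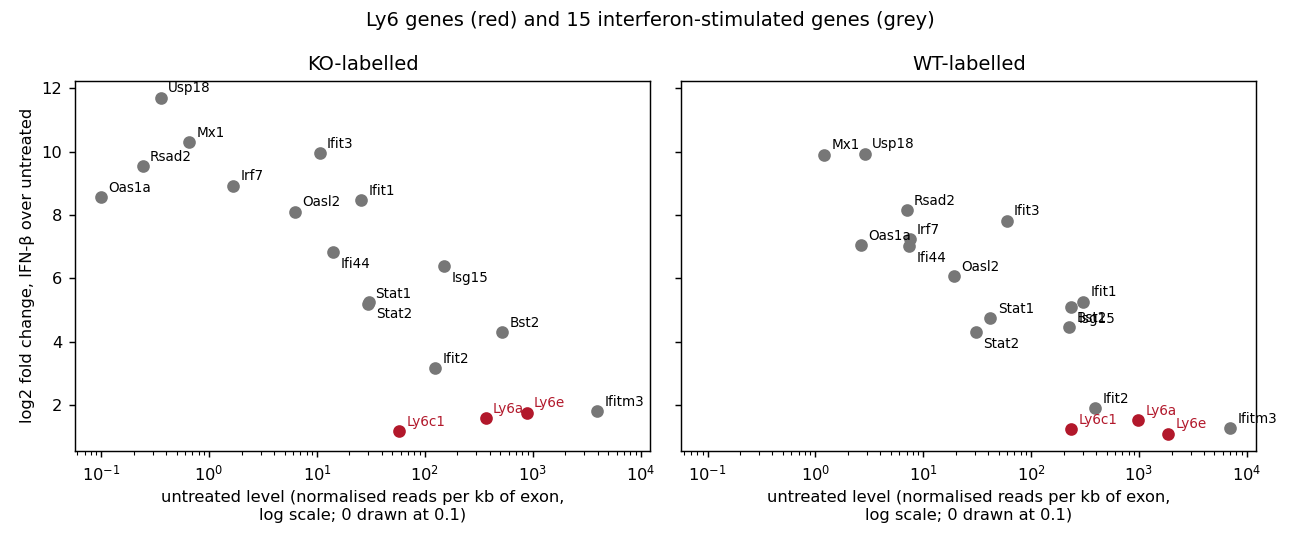
Untreated level (mean normalised reads per kb of exon, log scale) against the log2 fold change with IFN-β, for KO-labelled cells (left) and WT-labelled cells (right), with Ly6 genes in red and 15 interferon-stimulated genes in grey. The Ly6 genes sit at log2 fold changes of 1.09 to 1.75 with untreated levels of 57.8 to 1869 (reads per kb), while most of the grey genes lie above and to the left.

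The same list bears on the genotype comparison. Untreated, 4 of the 15 were lower in KO-labelled cells, against 3.23% of all genes tested. They were the antiviral enzyme Rsad2 (−4.09 ± 0.47, adjusted p = 0.00131) and the RNA-binding proteins Ifit1 (−3.73 ± 0.67, 0.0117), Ifit3 (−2.32 ± 0.36, 0.00584) and Ifit2 (−1.64 ± 0.27, 0.00815). The tetherin gene Bst2 was higher (1.27 ± 0.29, 0.0369), as were 3% of all genes tested. With the block 8 were lower and 1 higher, against 13.1% and 13.5% of all genes tested. The list's median was −1.35, against −1.39 for the 3 Ly6 genes and 0.00 over all genes tested. With IFN-β, 1 was lower, Rsad2 (−2.71 ± 0.47, 0.00988), against 3.64% of all genes tested. The list's median was then −0.04, against −1.33 for the Ly6 genes.

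Few other Ly6 genes were read in these cells. Of 18 further names from the chromosome 15 cluster 11 were among the symbols, 7 had a read and only Lynx1 was tested. Lynx1 averaged 217 normalised reads in KO-labelled cells with IFN-β and 225 untreated, against 81.4 and 75.4 in WT-labelled cells. It was on the other side from its neighbours, with a log2 fold change of 1.47 ± 0.60 between untreated KO-labelled and WT-labelled cells (adjusted p = 0.2, and 1.65 ± 0.21 with adjusted p = 0.00104 with the block). With IFN-β it had −0.03 in KO-labelled cells (adjusted p = 1) and 0.10 in WT-labelled cells (adjusted p = 1). Of 24 family members elsewhere in the genome, 9 had a read and 5 were tested. Without the block none of the 5 passed in limma, edgeR or DESeq2 in any comparison, and 0 had an unadjusted p under 0.05 in limma. With the block 1 rose with IFN-β in WT-labelled cells, Lypd6 (0.57 ± 0.13, adjusted p = 0.0433), against 4.68% of all genes tested. Between KO-labelled and WT-labelled cells the blocked fit called 1 of the 5 higher untreated, against 13.5% of all genes tested. It called 1 higher with IFN-β, against 12.7%, and 0 lower in either treatment. The urokinase receptor gene Plaur had −0.16 in KO-labelled and −0.10 in WT-labelled cells with IFN-β (adjusted p = 1 each).

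Of 31 genes for GPI anchor synthesis and transfer, the pathway that ties Ly6 proteins to the membrane, 29 were tested. None passed with IFN-β in limma without the block or in edgeR under either label. With the block 1 rose under each, against 3.37% of all genes tested in KO-labelled and 4.68% in WT-labelled cells. At an unadjusted p under 0.05 in limma the counts, in either direction, were 0 in KO-labelled and 1 in WT-labelled cells. Over all 12313 genes tested they were 599 and 748. DESeq2 also called 0 and 1 of the 29, in either direction. In WT-labelled cells it called 3.3% of all genes tested higher. Between KO-labelled and WT-labelled cells 1 was higher untreated and 2 with IFN-β, against 3% and 2.92% of all genes tested, and none was lower. They were Mppe1, a phosphodiesterase that trims the anchor before export (3.26 ± 0.47, adjusted p = 0.00431, and 2.51 ± 0.47, 0.0149, with IFN-β), and Pigk, the catalytic subunit of the transamidase that attaches the anchor (0.70 ± 0.15, 0.0268, with IFN-β). With the block the counts were 5 higher and 3 lower untreated, against 13.5% and 13.1% of all genes tested. With IFN-β they were 8 higher and 2 lower, against 12.7% and 13.3%.

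Of 40 other genes for GPI-anchored surface proteins 26 were tested. In limma without the block Bst2 was the one that rose with IFN-β, against 1.83% of all genes tested in KO-labelled and 2.21% in WT-labelled cells. It rose by 4.30 ± 0.32 in KO-labelled cells (adjusted p = 0.000124) and 4.46 ± 0.26 in WT-labelled cells (1.79e-05). In WT-labelled cells DESeq2 called 2 of the 26, counted in either direction. It called 3.3% of all genes tested higher there. With the block Bst2 was again the one that passed in KO-labelled cells, against 3.37% of all genes tested that rose. In WT-labelled cells the blocked fit also called the ephrin gene Efna5 (0.39, adjusted p = 0.0457) and the GDNF receptor gene Gfra1 (1.57, 0.0477) higher, against 4.68% of all genes tested. It called Efna4 lower there (−0.82, adjusted p = 0.0219), against 0.268%. Between KO-labelled and WT-labelled cells 2 were higher untreated, against 3% of all genes tested. They were Bst2 and the prion protein gene Prnp (1.11 ± 0.23, adjusted p = 0.0222). With IFN-β 1 was higher, Prnp (1.16 ± 0.23, 0.0183), against 2.92% of all genes tested. With the block 4 were higher and 10 lower untreated, against 13.5% and 13.1% of all genes tested. With IFN-β 5 were higher and 11 lower, against 12.7% and 13.3%.

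Markers were read to see which cells could hold the Ly6 RNA. All 14 fibroblast markers had reads, and their summed level was 356055 to 539854 normalised reads in KO-labelled and 254551 to 372147 in WT-labelled libraries. Of these, Dcn (−4.44 ± 0.18, adjusted p = 7.03e-06) and Lum (−4.06 ± 0.69, 0.00922), small matrix proteoglycans, were lower in untreated KO-labelled cells, against 3.23% of all genes tested. None was higher without the block, and the list's median log2 fold change was 0.16. With the block 2 were higher and 2 lower, against 13.5% and 13.1% of all genes tested. Of 7 markers of Ly6a-positive adventitial fibroblasts 6 were among the symbols, and their sum was 5670 to 6260 in KO-labelled and 1477 to 2352 in WT-labelled libraries. Cd34, which carries nearly all of that sum, was higher in untreated KO-labelled cells (1.57 ± 0.21, adjusted p = 0.00299), as were 3% of all genes tested. The direction was opposite to that of Ly6a, and the part of Cd34 in the Ly6a result was not tested.

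Markers of the other cell types that carry Ly-6C were few. The 10 endothelial markers summed to 57.7 to 85.7 normalised reads in KO-labelled and 189 to 429 in WT-labelled libraries. Nearly all of that sum was Flt1, which was lower in KO-labelled cells (−2.41 ± 0.39 untreated, adjusted p = 0.0072), and its part in the Ly6c1 result was not tested. Pecam1 averaged 2.81 with IFN-β and 3.35 untreated in KO-labelled cells, against 0.664 and 1.38 in WT-labelled cells. It held 19 reads over all libraries, Cdh5 42, and Tie1, Erg and Sox17 0. Of the 12 monocyte and macrophage markers 10 were among the symbols, and they summed to 145 to 204 in KO-labelled and 258 to 419 in WT-labelled libraries. The lower sum in KO-labelled cells was that of Cd14, which averaged 90.9 normalised reads with IFN-β and 104 untreated, against 230 and 269 in WT-labelled cells, and its part was not tested. Csf1r averaged 31.6 and 40.7 in KO-labelled cells, against 21.6 and 38.9 in WT-labelled cells, and Cd68 38.1 and 34.7, against 40.7 and 31.7. Over all libraries Cd14 held 1868, Cd68 362 and Csf1r 330 reads, while Ptprc held 2 reads, Itgam 1, and Fcgr1, Ccr2 and Tyrobp 0. Of the 6 T cell markers Cd3e, Cd3d, Cd8a and Cd2 held 0, and the sum, 23.1 to 167 in KO-labelled and 2.06 to 41.0 in WT-labelled libraries, was Lck but for 1 read of Cd4.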

How the data were processed

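Total RNA was sequenced from directional libraries, per the labels' protocols and the design text of the series. The submitters' processing notes name cutadapt 1.13, STAR 2.5.2a (build mm10), HTSeq and DESeq2. The annotation, strand setting, read length and treatment of reads with several matches are not given in the sources used here. What the authors deposited is a signal, the HTSeq read count of each gene over a size factor for its library. Within 0.001 reads, 100% of values were whole multiples of 1 read, so reads were recovered.

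Tests used limma 3.58.1 in R 4.3.3, with its trend option, on the normalised count plus 1 in log2, fitting 4 group means to all 10 libraries. Genes passed filterByExpr (edgeR 4.0.16, minimum count 10), which left 12313. Adjusted p-values are Benjamini-Hochberg over these, two-sided, with a threshold of 0.05, from limma unless another tool is named. Fold changes on this scale understate the change of low genes. Alternatives were other pseudocounts, filters and scalings, edgeR, DESeq2 1.42.0, the replicate block, and each library left out. The limma fit without the block was tested on simulated data for IFN-β in WT-labelled cells, drawn with no effect of replicate number. The blocked fits, the other comparisons, edgeR and DESeq2 were not tested in that way.

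For each library the deviation from its group's mean was correlated, across genes, with that of libraries in other groups. Pearson's r was 0.48 to 0.871 where the replicate number matched and at most 0.318 where it did not. Deviations are taken from each group's own mean, so these ranges are not independent. Between the KO-labelled groups, of 2 libraries each, the matched 0.871 and the unmatched −0.871 are the same result. The pairing rests on these data, not on the labels. The 4 genes and all lists were chosen with earlier results of these data known. Up to 4 passing members per list and comparison were named, by size of change. Lynx1, Lypd6, Plaur and Ifitm3 were named outside that rule, after their values were seen, as were the genes nearest by Spearman's rho. Gene positions and coding sequences are from GENCODE M21, promoters from RefSeq. Alignments used biopython 1.88.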

Additional observations from a re-analysis of the deposited data

How the results depend on the processing

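For 3 tested Ly6 genes, in limma without the block, 0 passed for IFN-β in WT-labelled cells, 1 in KO-labelled cells, and 0 between labels in either treatment. These counts did not change under pseudocounts of 0.5 and 5, no filter or a minimum count of 50, TMM scaling and edgeR. With the replicate block they were 3, 3, 3 (untreated) and 2 (IFN-β), with 609, 429, 3275 and 3203 genes passing in all, against 272, 227, 767 and 807. edgeR with the block gave 3, 3, 3 and 2, with 619, 425, 3343 and 3285. DESeq2 gave 1, 1, 2 and 1, with 410 in WT-labelled cells, 1513 untreated, 1504 with IFN-β and 1 gene for the interaction. With only the 2 groups compared, KO-labelled cells gave 0 Ly6 genes and 10 in all, and the untreated labels 280 in all. The causes were not tested.

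With a library left out, the Ly6 counts were 0 to 1 in each of these comparisons without the block and 0 for the interaction. With the block they were 0 to 3 in WT-labelled cells, 1 to 3 in KO-labelled cells, 1 to 3 untreated and 1 to 2 with IFN-β. Genes passing in all ran from 193 to 294, 134 to 218, 340 to 694 and 286 to 849 without the block. With it they ran from 363 to 592, 269 to 552, 1252 to 3274 and 1214 to 4464, and from 0 to 4 for the interaction. Calls gained without the block were Ly6e in WT-labelled cells in the fit that omits KO-labelled IFN-β library 1 (adjusted p = 0.0415) or 2 (0.0419), Ly6e untreated without the same libraries (0.044 and 0.0445), and Ly6c1 between labels with IFN-β in the fit that omits KO-labelled IFN-β library 2 (log2 fold change −3.08, adjusted p = 0.0454).

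Values near 0 changed sign. The Ly6c1 interaction was 0.21 in edgeR, 0.21 in DESeq2 and 0.019 in edgeR with the block, and with a library left out it ran from −1.07 to 0.94 (−0.50 to 0.36 with the block). The Ly6a interaction ran from −1.04 to 1.15 (−0.46 to 0.57 with the block). The Ly6e difference between labels with IFN-β ran from −0.85 to 0.10 without the block. Groups of 2 or 3 libraries limit each of these tests, and the Ly6a, Ly6c1 and Ly6c2 counts are limited as well by sequence they share. Ly6c2 was at 0 or 1 read in each library.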
